A study of Mus musculus with 12 samples.

Results

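Protamines, transition proteins and testis histones are the small basic proteins that package the DNA of developing sperm. The 10 genes Prm1, Prm2, Prm3, Tnp1, Tnp2, H1fnt, Hils1, Hist1h1t, Hist1h2ba and Hist1h2aa were chosen by gene symbol, and all 10 were found among the 20718 genes of the expression table. Testis RNA was sequenced in 12 libraries from F0 mice (strain given in the labels as IRC mouse) that had received lentivirus into the testes at 4 weeks of age. Per the study's methods the mice were raised to 9 weeks, mated for 4 days and kept for another 4 days before tissue was taken. In the F0_5251KD group the virus carried a mixture of shRNAs against 3 positions of lncRNA5251, a long non-coding RNA, and its control F0_3NC carried a negative control in the same LV3 backbone. In the F0_5251OV group the virus carried the full length of lncRNA5251 in the LV5 backbone, and its control F0_5NC was that vector alone. Each group had 3 libraries. All groups therefore shared an injected testis, and the 2 controls differed in backbone. The methods do not state which testis cells took up the virus. Nothing in the labels says whether the libraries came from separate animals, so p-values measure only the spread between these libraries.

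During spermiogenesis the round nucleus of the spermatid is condensed in steps. Testis variants of the histones are first built into chromatin in spermatocytes and spermatids, transition proteins then replace most of the histones, and protamines finally replace the transition proteins and compact the DNA into the sperm head. The messenger RNAs of protamines and transition proteins are made in round spermatids, stored bound to protein, and translated later in elongating spermatids, so that a transcript level is not a level of protein. In mouse sperm, protamine 1 and protamine 2 share the packaging of DNA, and the balance between them is widely used as a measure of chromatin quality.

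On GRCm38.p6 the members lie at a few loci. Tnp2 (chr16:10787935-10788655), Prm3 (chr16:10790508-10790914), Prm2 (chr16:10791377-10792105) and Prm1 (chr16:10796332-10796823) sit within 8889 bases of each other on the minus strand. Tnp1 lies at chr1:73015074-73015899 on the minus strand, H1fnt at chr15:98255982-98257307 on the minus strand, and Hist1h1t at chr13:23695811-23696545 on the plus strand. Hist1h2ba (chr13:23933725-23934156, minus strand) and Hist1h2aa (chr13:23934437-23934913, plus strand) point away from each other across 280 bases. The single exon of Hils1 (chr11:94967593-94968456, plus strand) overlaps Sgca, a muscle membrane gene, and the histone pair overlaps the annotated gene Gm33516. No step that keeps the strand was named for these libraries, so reads from such overlaps cannot be told apart. Sgca was listed at 2.53 to 8.10 FPKM (the deposited level per kilobase of transcript, scaled to library size), far under Hils1.

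Promoter sequence is shown for 3 members with a match to a motif named below and for the histone pair that shares 1 upstream stretch. The windows of all 10 members, each 250 bases before the start to 50 after it, came from RefSeq (GRCm38.p6) and were searched with the windows of all other RefSeq genes given for TGANNTCA, a relaxed form of the element bound by CREM, an activator of spermatid genes. This motif reads the same on both strands. It was found in 4 members (Prm1, Prm3, Tnp1 and Hils1), and in 14.1% of all 32851 windows. The 120 bases before the start of 3 of them follow, 5′ to 3′ on the gene's own strand, with the match in capitals. In Hils1 the match began 7 bases before the start.
Prm1, chr16:10796824-10796943, minus strand: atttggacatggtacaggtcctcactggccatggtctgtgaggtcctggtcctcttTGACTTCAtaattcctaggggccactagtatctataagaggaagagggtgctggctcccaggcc
Tnp1, chr1:73015900-73016019, minus strand: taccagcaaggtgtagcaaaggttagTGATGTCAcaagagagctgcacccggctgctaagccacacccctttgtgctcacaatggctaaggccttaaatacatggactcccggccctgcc
Prm3, chr16:10790915-10791034, minus strand: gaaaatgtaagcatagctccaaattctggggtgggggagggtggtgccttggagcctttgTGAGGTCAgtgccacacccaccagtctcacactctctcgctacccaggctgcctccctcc

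The matches began 64 bases before the start of Prm1, 94 before that of Tnp1 and 60 before that of Prm3. Prm2 and Tnp2 held no match to these letters in their windows. The shorter motif TGACG, searched on both strands, was found in H1fnt and in the Hist1h2ba and Hist1h2aa pair, and in 20.8% of all windows. The 250 bases before the start of Hist1h2aa, nearly the whole stretch it shares with Hist1h2ba, are shown with that match in capitals, which began 171 bases before the start.
Hist1h2aa, chr13:23934187-23934436, plus strand: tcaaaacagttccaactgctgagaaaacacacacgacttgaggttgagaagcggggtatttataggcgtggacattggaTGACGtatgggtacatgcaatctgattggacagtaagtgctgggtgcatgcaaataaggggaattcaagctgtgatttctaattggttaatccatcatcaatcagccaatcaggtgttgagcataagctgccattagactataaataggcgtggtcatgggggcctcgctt

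The libraries held 15431383 to 16355720 estimated counts. The tissue label was borne out by the fixed markers of spermatocytes, round and elongating spermatids, Sertoli cells and Leydig cells: 56 of the 57 were at 1 FPKM or more in every library, the exception being Fshr, the follicle-stimulating hormone receptor of Sertoli cells, at 0.86 to 1.74 FPKM. The targeted lncRNA5251 has no row under that name in the table, so its level is not given here. Along the first principal component, which took 17.2% of the variance, the 6 LV3 libraries fell on one side and the 6 LV5 libraries on the other. The backbone and the 2 experiments cannot be told apart, and each virus was compared only with its own control.

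The 4 transcripts of the main protamines and transition proteins were the 4 highest of all genes per length in every library. Over the 12 libraries, Prm1 averaged 11413 FPKM ± 865 and Prm2 11361 FPKM ± 822, followed by Tnp2 at 7836 ± 1060 and Tnp1 at 6435 ± 421 (SD, n = 12). Prm3 (746 ± 116), Hils1 (600.3 ± 70.3) and H1fnt (405 ± 37.8) formed a lower tier, ranked between 47 and 229 of all genes. Hist1h2aa (1.27 ± 0.576), Hist1h1t (1.15 ± 0.573) and Hist1h2ba (1.04 ± 0.364) stood at about 1 FPKM. Together the 10 genes took 1.24% (Wilson 95% interval 1.235 to 1.246) to 1.66% (1.657 to 1.67) of the counts of a library, intervals that cover counting error only, and 6.14% to 7.41% of the summed FPKM.

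Neighbours in this order did not always differ beyond their spread. Prm1 was above Prm2 in 6 of 12 libraries, and Tnp2 was above Tnp1 in 10 of 12. This order is in FPKM, whose values imply a length of 254 to 279 bases for Prm1 and 476 to 503 for Prm2. In estimated counts the ratio of Prm2 to Prm1 was 1.683 to 1.995 and that of Tnp2 to Tnp1 1.346 to 1.904. Prm3 was above Hils1 in 10 of 12. The steps from Prm2 to Tnp2, from Tnp1 to Prm3, from Hils1 to H1fnt and from H1fnt to the histones held in 12 of 12 libraries with ranges that did not touch. Among the 3 lowest genes the order changed from library to library.

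**Figure D1:**
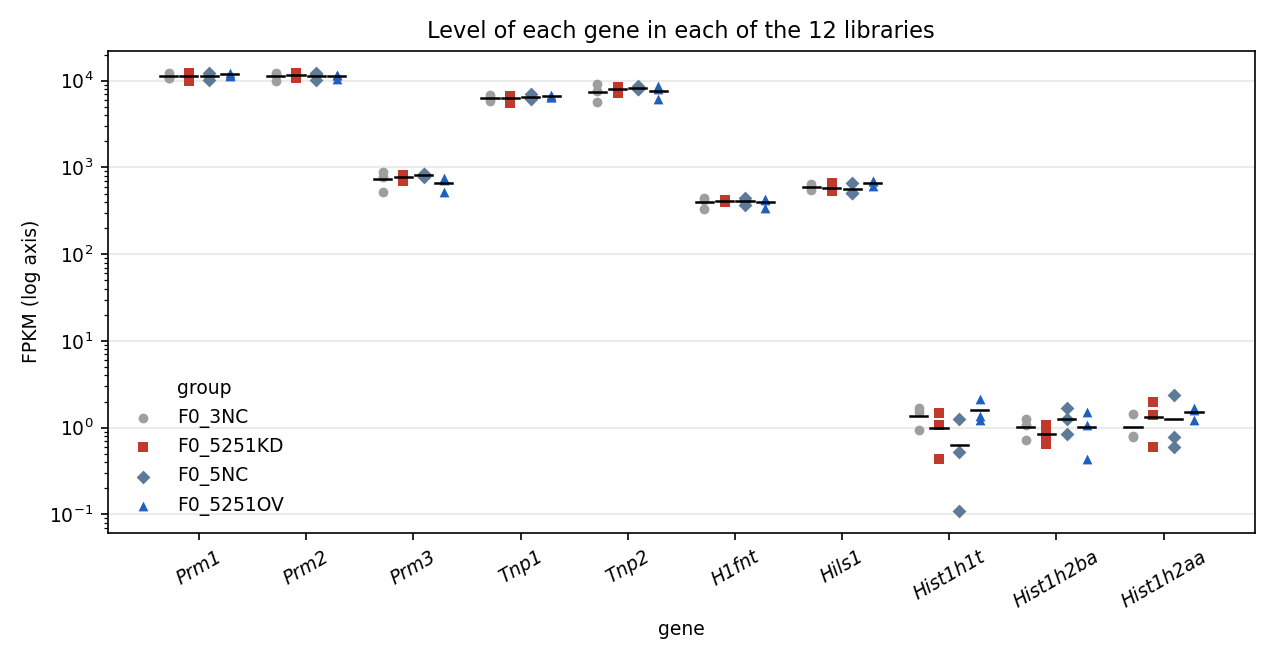
FPKM (log axis) of the 10 genes, with 1 point per library, the 4 groups side by side and a black line at each group mean. Prm1, Prm2, Tnp1 and Tnp2 lie between 5575 and 12381 FPKM, Prm3, Hils1 and H1fnt between 332 and 896, and the 3 histones under 2.5, with groups overlapping in nearly every case.

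Prm1 encodes protamine 1, the protamine shared by mammals. It was at 10749, 10657 and 12163 FPKM in F0_3NC, at 12328, 9805 and 12020 in F0_5251KD, at 10316, 12211 and 11248 in F0_5NC, and at 11435, 12381 and 11644 in F0_5251OV. The lowest and nearly the highest of these values both belonged to the knockdown, and every group overlapped every other.

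Prm2 encodes protamine 2, which is made as a precursor and trimmed on the DNA. It was at 11499, 9962 and 12264 FPKM in F0_3NC, at 11414, 10779 and 12267 in F0_5251KD, at 10236, 12327 and 11797 in F0_5NC, and at 10424, 11740 and 11620 in F0_5251OV. Replicate 2 of F0_3NC, replicate 1 of F0_5NC and replicate 1 of F0_5251OV were the lowest of their groups.

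Prm3, in the same cluster, encodes a small acidic protein of the spermatid cytoplasm and is no DNA packaging protamine despite its name. It was at 769, 526 and 896 FPKM in F0_3NC, at 697, 793 and 809 in F0_5251KD, at 777, 831 and 844 in F0_5NC, and at 521, 726 and 758 in F0_5251OV. A low value stood alone in F0_3NC (replicate 2) and in F0_5251OV (replicate 1).

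Tnp1 and Tnp2 encode the transition proteins that stand in the nucleus between histones and protamines. Tnp1 was at 6279, 5901 and 6833 FPKM in F0_3NC, at 6591, 5575 and 6647 in F0_5251KD, at 6076, 7043 and 6389 in F0_5NC, and at 6557, 6823 and 6504 in F0_5251OV. Tnp2 was at 7628, 5621 and 9177 FPKM in F0_3NC, at 8288, 7149 and 8417 in F0_5251KD, at 7940, 8799 and 8109 in F0_5NC, and at 6151, 8622 and 8125 in F0_5251OV. For Tnp2 the same replicates were low as for Prm3, while Tnp1 in F0_5251OV replicate 1 lay between the other FPKM values of its group. In estimated counts Tnp1 was lowest of its group there, at 29400 beside 31778 and 31771.

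H1fnt and Hils1 encode linker histones that appear only after meiosis, and both act in the condensing spermatid nucleus. H1fnt was at 426, 332 and 440.2 FPKM in F0_3NC, at 420, 401 and 421 in F0_5251KD, at 366, 443 and 406 in F0_5NC, and at 343, 424 and 437 in F0_5251OV. Hils1 was at 648, 548 and 588 FPKM in F0_3NC, at 548, 540.3 and 655 in F0_5251KD, at 504, 657 and 509.9 in F0_5NC, and at 609.5, 696 and 699.6 in F0_5251OV. The 3 overexpression values of Hils1 were above 2 of the 3 F0_5NC values, and F0_5NC replicate 2 fell among them.

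Hist1h1t (named H1f6 in RefSeq) encodes the linker histone of spermatocytes, and Hist1h2ba (H2bc1) and Hist1h2aa (H2ac1) encode the testis forms of histones H2B and H2A. Per library all 3 together received 11 to 28.6 estimated counts. Hist1h1t was counted 16, 9 and 14 times in F0_3NC, 4, 10 and 14 times in F0_5251KD, 5, 1 and 12 times in F0_5NC, and 20, 13 and 12 times in F0_5251OV. At such counts, counting error alone is a large share of each value. Hist1h2ba received 2 to 8 estimated counts and Hist1h2aa 3 to 12, with all groups overlapping.

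Most histone genes were as low as these. Core histone mRNAs made in S phase end in a stem-loop in place of a poly(A) tail, and the libraries were made from RNA captured with oligo(dT). Among the 65 genes of the table with a Hist cluster symbol, 46 averaged under 1 FPKM and the median was 0.242 FPKM, while 6 averaged over 10 FPKM, led by Hist2h2aa1 (192 FPKM), Hist2h2aa2 (122 FPKM) and Hist1h2bp (60.7 FPKM). A sequence with the pattern of the histone stem-loop was found in the GENCODE transcripts of 44 of the 65, Hist1h1t and these 3 plentiful genes among them. It was not found in those of Hist1h2ba (384 bases) and Hist1h2aa (390 bases). Both of these transcripts are shorter than the RefSeq spans given above, so a stem-loop beyond their ends would be missed. Whether this pair has a stem-loop is not settled by the search. The values of Hist1h1t, Hist1h2ba and Hist1h2aa are thus levels in captured RNA, and the part of the capture in them was not tested.

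Whether knockdown of lncRNA5251 altered these transcripts was asked with edgeR's quasi-likelihood test in F0_5251KD vs F0_3NC. Of the 10 genes, 8 passed the filter on low counts, Hist1h2ba and Hist1h2aa did not, and 0 of the 8 passed an adjusted p of 0.05. Over all 16296 genes tested, 0.0245% passed, so a count of 0 among 8 is no result about the members. The log2 fold changes were 0.04 for Prm1 (95% interval -0.21 to 0.29), 0.03 for Prm2 (-0.23 to 0.29), 0.08 for Prm3 (-0.35 to 0.50), -0.01 for Tnp1 (-0.24 to 0.22) and 0.09 for Tnp2 (-0.30 to 0.47). They were 0.04 for H1fnt (-0.25 to 0.33), -0.04 for Hils1 (-0.33 to 0.25) and -0.47 for Hist1h1t (-1.67 to 0.73). These intervals still allow Prm1 to be between 0.862 and 1.22 times its control level, and Hist1h1t between 0.314 and 1.66 times.

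In F0_5251OV vs F0_5NC, 0 of the 8 genes passed the adjusted p of 0.05, and 0.0% of all genes did, while 1429 of 16296 genes had an unadjusted p under 0.05 and DESeq2 called 28. Hils1 and Hist1h1t were the only members of the 8 with an unadjusted p under 0.05 in this comparison. In CPM (counts scaled to library size after TMM), Hils1 averaged 405 ± 80.0 in the LV5 control and 497.5 ± 52.5 with overexpression (SD, n = 3 in each), a log2 fold change of 0.30 with a 95% interval of 0.01 to 0.59 and an adjusted p of 0.562 by edgeR. Over the alternatives the adjusted p of Hils1 ran from 0.297 to 0.987, and its log2 fold change was 0.19 without F0_5NC replicate 1 and 0.47 without F0_5NC replicate 2. Hist1h1t had a log2 fold change of 1.32 (0.06 to 2.59, edgeR adjusted p 0.560, 0.471 to 0.987 over the alternatives), which was 0.85 without F0_5NC replicate 2, the library with 1 count, and 2.32 without F0_5NC replicate 3.

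The other members in the overexpression comparison lay near 0, with log2 fold changes of 0.09 for Prm1 (-0.16 to 0.34), 0.01 for Prm2 (-0.26 to 0.27), 0.05 for Tnp1 (-0.18 to 0.28), -0.08 for Tnp2 (-0.47 to 0.30) and 0.03 for H1fnt (-0.27 to 0.32). Prm3 had -0.26 (-0.69 to 0.16), which became -0.07 without F0_5251OV replicate 1.

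The 2 controls were compared as a background. In F0_3NC vs F0_5NC 0 of the 8 genes passed, beside 0.331% of all genes, and the log2 fold changes of the 7 abundant members ran from -0.17 (Prm3) to 0.11 (Hils1). Hist1h1t had 1.12 (-0.17 to 2.40, edgeR adjusted p 0.463), and F0_5NC was the group with the lowest counts of it in both comparisons that use it. The difference between the knockdown and the overexpression effect was tested as an interaction, in which 0 of the 8 genes and 0.0% of all genes passed, while 1842 of 16296 genes had an unadjusted p under 0.05 and DESeq2 called 35. The members' differences ran from -0.34 (Hils1, -0.74 to 0.07) to 0.34 (Prm3, -0.26 to 0.94) among the 7 abundant genes, and Hist1h1t had -1.79 (-3.54 to -0.05, edgeR adjusted p 0.441).

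Separation of groups was counted too. In F0_5251KD vs F0_3NC, 0 of the 8 genes had CPM ranges that were fully apart, beside 11.8% of all genes tested, and in F0_3NC vs F0_5NC 0 of the 8 beside 17.0%. In F0_5251OV vs F0_5NC it was 1 of the 8, Hist1h1t, beside 13.9%, and there 12 counts in the highest control library met 12 in the lowest overexpression library.

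**Figure D2:**
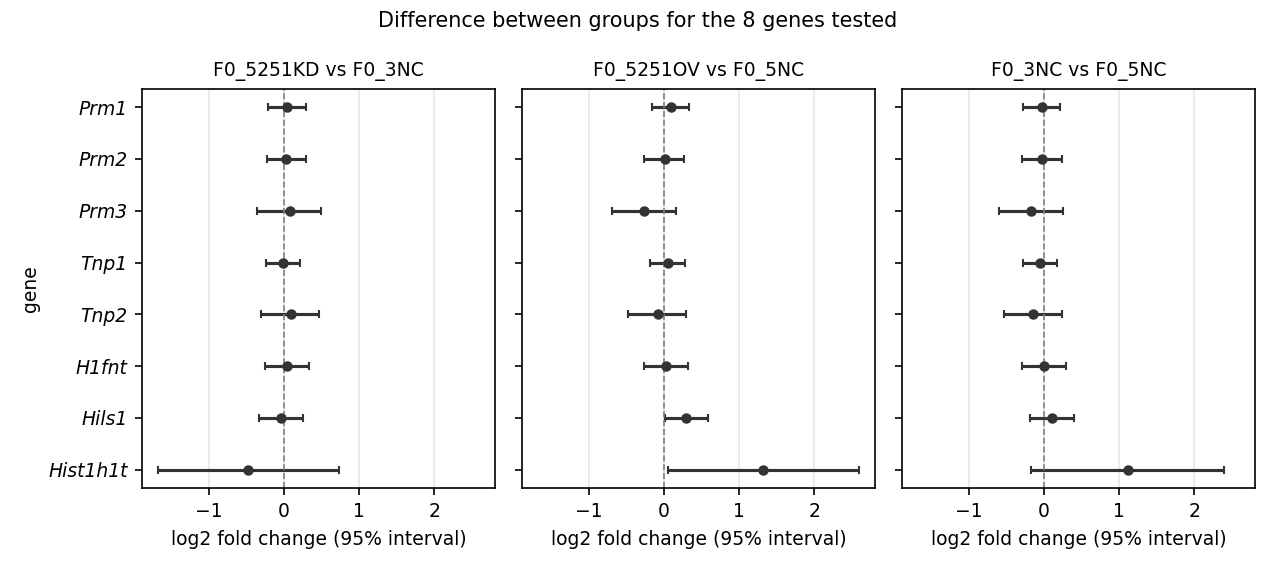
Log2 fold change of the 8 genes tested, with 95% intervals, in each of the 3 comparisons between groups. Intervals of the 7 abundant genes lie within -0.69 and 0.59 and include 0 except for Hils1 in F0_5251OV vs F0_5NC, whose lower bound is 0.01, and those of Hist1h1t are several times wider.

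Ratios between 2 members within a library do not depend on the scaling of libraries. In FPKM their level does depend on the length used for each gene. The FPKM ratio of Prm2 to Prm1 was 1.0 ± 0.0676 in F0_3NC and 1.02 ± 0.0869 in F0_5251KD (SD, n = 3 in each). It was 0.953 ± 0.0433 in F0_5251OV against 1.02 ± 0.029 in its control, and it ran from 0.912 to 1.10 over all libraries. In estimated counts the same ratio ran from 1.683 to 1.995, so its level near 1 holds for FPKM only. The log2 difference was 0.01 in the knockdown comparison (exact two-sided permutation test, p = 0.80) and -0.09 in the overexpression comparison (exact permutation p = 0.20). The ratio of Tnp1 to Prm1 was the steadiest, from 0.535 to 0.589 over the 12 libraries.

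The ratio of Tnp2 to Tnp1 was 1.17 ± 0.199 in F0_3NC, 1.27 ± 0.0128 in F0_5251KD, 1.28 ± 0.0292 in F0_5NC and 1.15 ± 0.184 in F0_5251OV. Its log2 difference was 0.13 for the knockdown (exact permutation p = 0.70) and -0.16 for the overexpression (exact permutation p = 0.20). Hist1h1t to Prm1 differed by a log2 ratio of -0.62 in the knockdown comparison, 1.80 in the overexpression comparison and 1.68 between the controls. The exact permutation p was 0.40, 0.30 and 0.20. Leaving out single libraries gave -0.96 to -0.05, 0.77 to 2.59 and 0.65 to 2.47. The last 2 comparisons share F0_5NC, whose replicate 2 had 1 count of Hist1h1t. Of the 12 ratio tests 0 passed, the lowest adjusted p was 0.60, and 3 libraries against 3 cannot give an exact p under 0.10.

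The libraries themselves differed more in these genes than in most abundant genes. The SD of log2 CPM within groups was 0.139 for Tnp1, 0.158 for Prm1, 0.167 for Prm2, 0.190 for Hils1, 0.198 for H1fnt, 0.270 for Tnp2 and 0.307 for Prm3, beside a median of 0.114 over the 1145 genes with at least 200 CPM. Of these genes, 97.6% had a smaller SD than Tnp2 and 98.4% a smaller one than Prm3.

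Deviations of the 7 abundant members were positively correlated over the libraries, to unequal degrees. As a description, the Pearson correlation of deviations from group means over 12 libraries was 0.60 to 0.98 over the 21 pairs. It was 0.98 for Prm1 and Tnp1 (0.95 over the 6 LV3 libraries and 0.99 over the 6 LV5 libraries, as levels), 0.96 for Prm2 and H1fnt (0.95 and 0.97) and 0.92 for Tnp2 and Prm3 (0.89 and 0.92), and lowest for Prm1 and Prm3 at 0.60 (0.46 and 0.44). Within a backbone some pairs with Hils1 were weaker still, at 0.11 for Prm3 and Hils1 over the LV5 libraries (0.53 over LV3), 0.31 for Prm1 and Hils1 over the LV3 libraries (0.88 over LV5), and 0.49 and 0.43 for Tnp2 and Hils1. Prm1 and Prm3 lie in the same cluster on chromosome 16, whereas Tnp1 lies on chromosome 1. These values share their library and its scaling, and genes that fill a library with counts also share its depth.

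**Figure D3:**
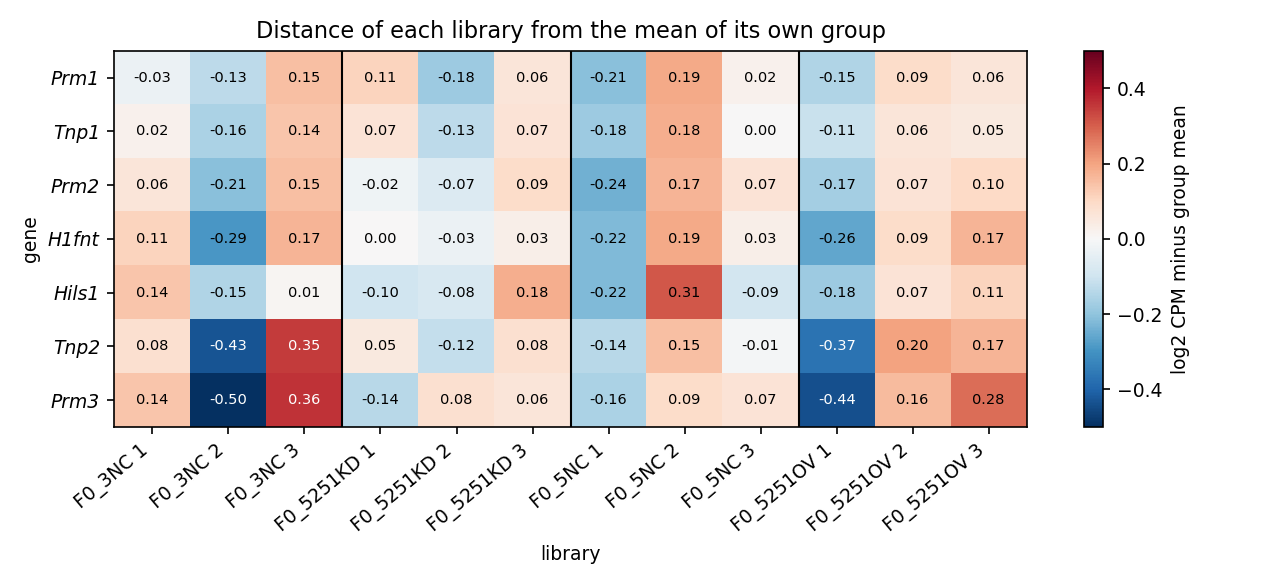
Log2 CPM of the 7 abundant genes in each library minus the mean of that library's group, with blue below and red above the mean. All 7 genes are below their group mean in F0_3NC replicate 2, F0_5NC replicate 1 and F0_5251OV replicate 1, and Tnp2 and Prm3 lie furthest down in F0_3NC replicate 2 (-0.43 and -0.50) and F0_5251OV replicate 1 (-0.37 and -0.44).

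In F0_3NC replicate 2 and F0_5251OV replicate 1, Tnp2 and Prm3 lay furthest below their group means, in a graded order of the members. H1fnt came next in log2 CPM (-0.29 and -0.26), with Prm2 at -0.21 and -0.17 and Tnp1 at -0.16 and -0.11. The FPKM ratio of Tnp2 to Tnp1 was 0.953 in F0_3NC replicate 2 and 0.938 in F0_5251OV replicate 1, and 1.21 to 1.34 in the other 10 libraries. Prm3 to Prm1 was 0.0494 and 0.0456 in the same libraries and 0.0565 to 0.0809 in the others. These libraries also had the lowest effective length of Prm1 implied by its deposited count and FPKM, a quantity that moves with the fragment length of a library, at 257 and 254 bases beside 264 to 279 bases in the other 10. Over 12 libraries the correlation of that length with the log2 ratio of Tnp2 to Tnp1 was 0.79, and over the 10 others it was -0.25. The transcripts of Tnp2 and Prm3 had a GC content of 58.5% and 58.8%, those of Tnp1 and Prm1 49.2% and 54.4%, and those of Prm2 and H1fnt 59.3% and 58.1%. Over all genes these libraries also stood apart from the rest of their groups. The chi-square per gene between the counts of 2 libraries was 15.63 and 17.77 for F0_3NC replicate 2, beside 3.4 between its group mates. For F0_5251OV replicate 1 it was 11.93 and 14.5, beside 4.29, and for F0_5NC replicate 1 11.63 and 8.65, beside 4.77. The mean log2(FPKM + 0.1) of the spermatocyte markers was 6.69 in both F0_3NC replicate 2 and F0_5251OV replicate 1, and 6.45 to 6.57 in the other 10. By summed FPKM these markers did not set the libraries apart. The sums were 3873 and 3957, beside 3718 to 3939 in the other 10. The part of fragment length, base composition or cell make-up in the ratios was not tested.

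Without F0_3NC replicate 2 the log2 fold change of Tnp2 in F0_5251KD vs F0_3NC was -0.10 in place of 0.09, and without F0_5251OV replicate 1 that in F0_5251OV vs F0_5NC was 0.08 in place of -0.08. For Prm3 it was -0.13 and -0.07 without these libraries.

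**Figure D4:**
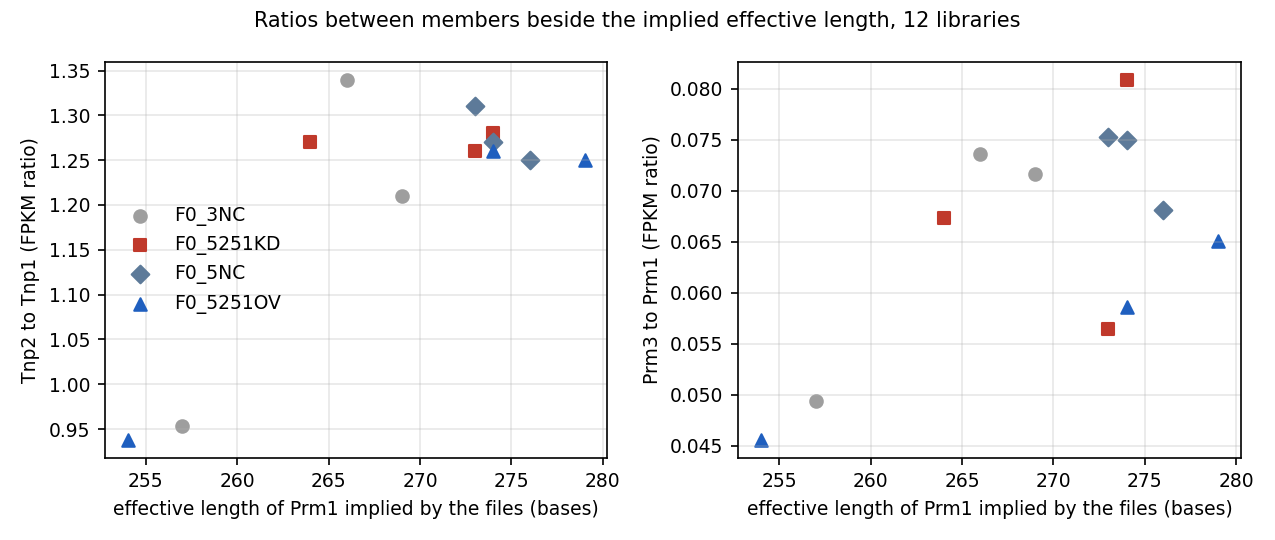
FPKM ratio of Tnp2 to Tnp1 (left) and of Prm3 to Prm1 (right) against the effective length of Prm1 implied by the files, in bases, with 1 point per library. F0_3NC replicate 2 (257 bases) and F0_5251OV replicate 1 (254 bases) have the lowest ratios on both sides, and the other 10 libraries lie at 264 to 279 bases with Tnp2 to Tnp1 ratios of 1.21 to 1.34.

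In F0_5NC replicate 1, the third library with all 7 abundant members below their group mean, markers of somatic cells were high. The summed FPKM of the 12 Sertoli cell markers was 1695 there and 925 to 1192 in the other 11 libraries, and that of the 9 Leydig cell markers was 4861 there and 1983 to 4253 in the others. The summed elongating spermatid markers were lowest in this library, at 11537, with 11948 in F0_3NC replicate 2 and 12482 in F0_5251OV replicate 1 next, beside 12825 to 13579 in the other 9. In bulk tissue fewer cells of a type and less RNA per cell cannot be told apart. Without F0_5NC replicate 1 the log2 fold change of Prm1 in F0_5251OV vs F0_5NC was -0.01 in place of 0.09, and that of Prm2 was -0.11 in place of 0.01.

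The genes whose levels over the 12 libraries were most like the mean of Prm1, Prm2, Tnp1 and Tnp2 were 1700042G07Rik (Pearson r = 0.982), Slc25a37 (0.958), Cdc34 (0.947), Wasf2 (0.946) and Asb8 (0.945), with r of 0.91 to 0.99 within the LV3 and the LV5 libraries taken apart. They were picked by r over these same libraries, so the values within a backbone are a description and no separate support. Slc25a37 encodes mitoferrin, an iron importer of mitochondria, Cdc34 a ubiquitin-conjugating enzyme and Wasf2 an actin regulator. Their levels were far lower, with medians of 372 FPKM for 1700042G07Rik, 209 for Cdc34, 49.8 for Asb8, 28.7 for Wasf2 and 10.6 for Slc25a37.

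Genes that act on the members were read from fixed lists. Of the 10 regulators of protamine gene transcription, such as Crem and its partner Fhl5, 0 passed in any comparison, and their median log2 fold change was -0.03 in the knockdown comparison, 0.08 in the overexpression comparison and 0.11 between the controls, beside -0.004, -0.002 and 0.00 over all genes. All 10 had values above 0 in the overexpression comparison, from 0.04 (Gtf2a1l, a germ cell TFIIA subunit) to 0.17 (Fhl5, edgeR adjusted p 0.569). So did 11 of 12 round spermatid, 10 of 12 elongating spermatid and 10 of 12 spermatocyte markers, but 4 of 10 spermatogonia markers. Between the controls, a comparison that shares F0_5NC, 8 of the 10 regulators were above 0. In the knockdown comparison they ran from -0.15 (Fhl5) to 0.20 (Rfx2, a spermatid transcription factor), and between the controls from -0.11 (Rfx2) to 0.26 (Fhl5, adjusted p 0.281).

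Of the 12 genes that store spermatid mRNA or control its translation, 0 passed in any comparison, with medians of -0.03, 0.08 and 0.03. The range in the knockdown comparison was from -0.12 (Ddx4, the germ cell RNA helicase) to 0.16 (Tarbp2, needed for protamine translation). In the overexpression comparison it was from -0.09 (Ybx2, which coats stored mRNA) to 0.15 (Pabpc2, a testis poly(A)-binding protein), and between the controls from -0.24 (Tarbp2) to 0.21 (Ddx4). Of the 17 genes of histone removal and protamine deposition, 0 passed, with medians of -0.06, 0.05 and 0.07. Their extremes were -0.17 (Psme4, the proteasome activator PA200) and 0.10 (Dot1l, a histone methyltransferase) for the knockdown, -0.09 (Epc1) and 0.17 (Hspa4l, a chaperone) for the overexpression, and -0.07 (Ppp1cc) and 0.33 (Sirt1, edgeR adjusted p 0.366) between the controls.

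The table held 26 other histones and histone variants, of which 17 were tested and 0 passed, with medians of 0.11, -0.05 and -0.06. Their extremes, all genes of few counts, were -0.50 (Hist3h2a) and 0.65 (Hist1h1c) for the knockdown, -0.55 (Hist3h2ba) and 0.97 (Hist3h2a) for the overexpression, and -0.64 (Hist1h1c) and 0.98 (Hist3h2a) between the controls. Hist3h2a, like Hist1h1t, was lowest in F0_5NC, at 0.957 CPM ± 0.273 beside 1.88 ± 0.443 in F0_5251OV, and its adjusted p by edgeR was 0.552.

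Markers of the cells that carry or surround the members gave 1 call in 9 lists and 3 comparisons: Spink8, an epididymis gene, was lower in F0_3NC than in F0_5NC (log2 fold change -3.79, edgeR adjusted p 0.0235). The 4 epididymis markers tested had medians of -0.83 for the knockdown, -0.66 for the overexpression and -5.34 between the controls. The summed FPKM of the 6 markers found in the expression table was 1.28 to 7.47 in F0_3NC and 1.09 to 1.64 in F0_5251KD. In F0_5NC it was 15.3 to 104.5 and in F0_5251OV 3.8 to 69.2. Extremes among the 4 tested were -4.72 (Crisp1) and 0.00 (Rnase9), then -0.85 (Spink8) and -0.31 (Adam7), and between the controls -7.27 (Adam7) and -3.79 (Spink8). In the knockdown comparison Crisp1 averaged 0.0853 CPM in F0_5251KD and 2.49 in F0_3NC (SE of the log2 fold change 2.806). Rnase9 averaged 0.0212 and 0.022 CPM (SE 2.96). The part of attached epididymis in the members' values was not tested.

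Medians of the germ cell marker lists lay between -0.07 and 0.14. The 12 elongating spermatid markers had medians of 0.04, 0.05 and 0.00 in the order knockdown, overexpression, controls, with Akap4 (-0.12) and Tssk6 (0.26), then Tssk6 (-0.08) and Cabs1 (0.21), then Tssk6 (-0.20) and Cabs1 (0.26) at the ends. The 12 round spermatid markers had medians of -0.06, 0.14 and 0.14, with Izumo1 (-0.19) and Catsper4 (0.06), then Catsper4 (-0.03) and Catsper3 (0.24), then Catsper4 (-0.12) and Spaca7 (0.23). For the 12 spermatocyte markers they were -0.07, 0.06 and 0.09, with Sycp1 (-0.30) and Spag6 (0.08), then Tex101 (-0.02) and Hormad1 (0.26), then Ccna1 (-0.10) and Hormad1 (0.32). For the 10 spermatogonia markers they were -0.02, -0.06 and -0.04, with Stra8 (-0.23) and Nanos3 (0.60), then Kit (-0.16) and Gfra1 (0.25), then Nanos3 (-0.65) and Gfra1 (0.23). Nanos3 was a gene of few counts, averaging 0.554 CPM in F0_5251KD, 0.365 in F0_3NC and 0.575 in F0_5NC. The SE of its log2 fold change was 0.521 for the knockdown and 0.518 between the controls.

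Lists of somatic markers had medians above 0 for the knockdown and below 0 for the overexpression, again with 0 calls by edgeR. Single libraries stood apart in these lists: the Sertoli sum was 1695 FPKM in F0_5NC replicate 1 beside 1090 and 1096 in the rest of its group and 1011 to 1072 in F0_5251OV, and the Leydig sum was 4861 FPKM there beside 2367 and 2834. In F0_5251KD the Leydig sum was 4253 FPKM in replicate 1 beside 2513 and 2775, and the part of these libraries in the medians was not tested. The 12 Sertoli cell markers had medians of 0.10, -0.21 and -0.23, with Wt1 (-0.14) and Amhr2 (0.26), then Sox9 (-0.57, adjusted p 0.511) and Fshr (-0.05), then Inha (-0.46) and Rhox5 (-0.01). The 9 Leydig cell markers had medians of 0.31, -0.22 and -0.16, with Star (-0.14) and Fabp3 (0.45), then Insl3 (-0.56) and Star (-0.10), then Insl3 (-0.51) and Star (0.67). The 8 peritubular and vascular markers had 0.20, -0.32 and -0.11, with Tagln (0.03) and Kdr (0.41), then Tagln (-0.55, adjusted p 0.495) and Vwf (-0.07), then Kdr (-0.51) and Tagln (0.42). The 8 macrophage markers had 0.15, -0.28 and -0.25, with Cd14 (-0.24) and Lyz2 (0.54), then Lyz2 (-0.54) and Mrc1 (0.04), then Lyz2 (-0.60) and Cd14 (1.85, adjusted p 0.105). Both comparisons with F0_5NC share its libraries, so their values are given side by side only.

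**Figure D5:**
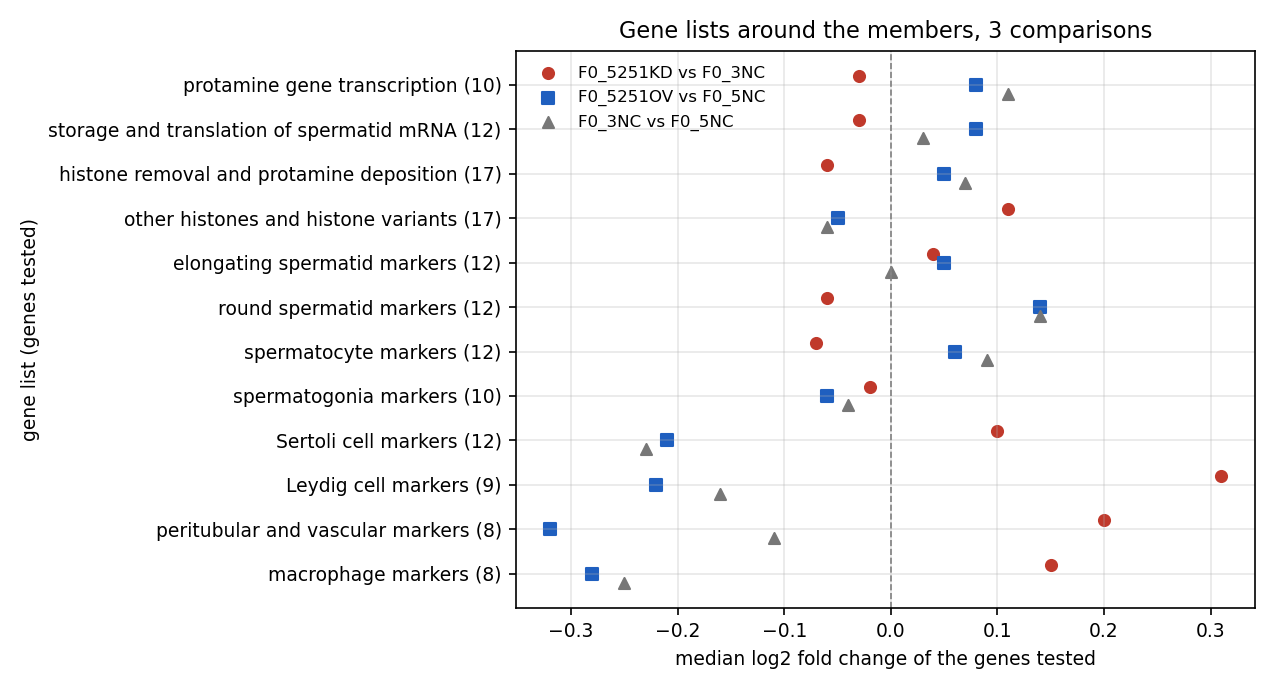
Median log2 fold change of the tested genes of 12 lists in the 3 comparisons, with the number tested in brackets and the epididymis list left out. Lists of spermatid and spermatocyte genes lie between -0.07 and 0.14, and lists of Sertoli, Leydig, peritubular, vascular and macrophage genes lie between 0.10 and 0.31 in F0_5251KD vs F0_3NC and between -0.32 and -0.11 in the other comparisons.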

How the data were processed

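RNA of F0 mouse testis was enriched for mRNA with oligo(dT) beads and copied with random hexamers. Per the study's methods the reads were aligned to reference genes with SOAPaligner, and per the labels the build was mm10. The authors deposited 1 table that gives each gene's estimated count and FPKM level (named RPKM in the methods) in every library. Which program wrote it is not stated in the methods, and 18 columns that match no sample were not used. Estimated counts were rounded: 12.0% of all counts, and 2 of the members' 120, were not whole within 1e-06. The 12 libraries held 15431383 to 16355720 counts. One edgeR 4.0.16 fit (R 4.3.3) of 4 groups used TMM, filterByExpr and the quasi-likelihood F test with Benjamini-Hochberg adjustment over 16296 genes, threshold 0.05, two-sided, and was checked on simulated data. Ratios were tested by exact permutation in scipy 1.17.1. Alternatives were DESeq2 1.42.0, limma 3.58.1 on log2(FPKM + 1) and log2(FPKM + 0.1), other scalings and filters, a replicate block, the groups compared alone, a pooled-count test after DEGseq (a log2 fold change of 1 or more either way with adjusted p up to 0.001) and leaving out each library. Members and the 13 gene lists were chosen with earlier results of these data known. Named genes are all members, and per list and comparison each called gene and the extremes, and the 5 genes most like the members. Of 156 list symbols, 2 were not found in the table.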

Additional observations from a re-analysis of the deposited data

How the results depend on the processing

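In all 4 contrasts 0 members were called at an adjusted p of 0.05 under each alternative run at that threshold. The pooled-count test, run for the 3 comparisons between groups at other thresholds (a log2 fold change of 1 or more either way with adjusted p up to 0.001), also called 0. Counts over all genes moved more: for F0_5251KD vs F0_3NC, F0_5251OV vs F0_5NC and F0_3NC vs F0_5NC, edgeR called 4, 0 and 54 genes, DESeq2 20, 28 and 138, and the pooled-count test, at its own thresholds and with libraries summed, 143, 191 and 307. For the knockdown limma called 2 and 0 genes with pseudocounts of 1 and 0.1, 1 gene was called without F0_5251KD replicate 1, and 0 were called on leaving out F0_5251KD replicate 3 or either the first or the third F0_3NC library. The overexpression gave 3 calls with no filter or with the compared groups alone and 1 without F0_5NC replicate 2 or without F0_5NC replicate 3. The controls gave 35 without F0_3NC replicate 2 and 30 without F0_5NC replicate 3. For the difference of effects, edgeR called 0, DESeq2 35, limma 1 with a pseudocount of 1, and edgeR 1 without F0_5NC replicate 3. With the replicate block edgeR called 2, 0 and 50 genes and 0 members, and the same replicate numbers did not pair the libraries (correlations of deviations from -0.173 to 0.065). Across members, 255 of the log2 fold changes recomputed with all libraries kept their direction and 21 near 0 changed sign, in each case from a value whose interval included 0. Tnp1 in F0_5251KD vs F0_3NC went from -0.01 to 0.00 with DESeq2, its size factors, upper-quartile scaling and no filter and to 0.01 with a filter of 1 CPM. Prm2 in F0_5251OV vs F0_5NC went from 0.01 to -0.01 with upper-quartile scaling, 0.00 with no filter, the filter of 1 CPM and the compared groups alone, and -0.02 with limma. H1fnt went to -0.02 with limma in F0_5251OV vs F0_5NC, and in F0_3NC vs F0_5NC to -0.03 with limma and -0.01 with DESeq2, both other scalings, both other filters and the compared groups alone. With estimated counts in place of FPKM, the log2 ratio of Prm2 to Prm1 differed by 0.00 in F0_5251KD vs F0_3NC and in F0_3NC vs F0_5NC.

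Leaving out each library in turn gave these ranges of log2 fold change where a sign changed. In F0_5251KD vs F0_3NC they were -0.02 to 0.12 for Prm1, -0.07 to 0.11 for Prm2, -0.13 to 0.27 for Prm3, -0.08 to 0.07 for Tnp1, -0.10 to 0.28 for Tnp2, -0.09 to 0.13 for H1fnt and -0.14 to 0.03 for Hils1. In F0_5251OV vs F0_5NC they were -0.01 to 0.18 for Prm1, -0.11 to 0.09 for Prm2, -0.04 to 0.14 for Tnp1, -0.18 to 0.08 for Tnp2 and -0.08 to 0.14 for H1fnt. In F0_3NC vs F0_5NC they were -0.13 to 0.07 for Prm1, -0.14 to 0.08 for Prm2, -0.36 to 0.04 for Prm3, -0.14 to 0.04 for Tnp1, -0.33 to 0.05 for Tnp2, -0.11 to 0.14 for H1fnt and 0.00 to 0.28 for Hils1. For the difference of effects they were -0.15 to 0.06 for Prm1, -0.08 to 0.15 for Prm2, -0.15 to 0.05 for Tnp1, -0.02 to 0.36 for Tnp2 and -0.12 to 0.13 for H1fnt. The log2 ratio of Prm2 to Prm1 ran from -0.04 to 0.08 for the knockdown and -0.07 to 0.03 between the controls, and that of Tnp2 to Tnp1 from -0.01 to 0.24 and -0.25 to 0.00. Hist1h1t, Hist1h2ba and Hist1h2aa are limited by counts of 1 to 20 per library, and the other 7 members by the spread between libraries.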
